A study of Mus musculus with 24 samples.

Results

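The genes described here encode the collagens, laminins and integrins of the mouse: the fibre and sheet proteins of the extracellular matrix and the cell-surface receptors that hold them. Members were all GRCm38 protein-coding genes whose symbol has the form of a collagen chain (Col), a laminin chain (Lama, Lamb or Lamc) or an integrin subunit (Itga or Itgb). The rule took 80 of 21883 protein-coding genes, of which 44 were collagen genes, 11 laminin genes and 25 integrin genes. Each gene was taken with 5 kb on either side, and the peaks overlapping that window were recorded in 8 deposited peak lists.

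The study profiled SOX8 and SOX9, a pair of related transcription factors, in the retina of wild-type mice at postnatal days 2 (P2) and 17 (P17). It used CUT&RUN, in which an antibody tethers a nuclease to chromatin and the released fragments are sequenced, with 600000 nuclei per reaction. The 24 libraries comprised, at each age, 4 for SOX8 (2 antibodies) and 2 each for SOX9, for the histone mark H3K4me3 of active promoters, for the mark H3K27ac of active promoters and enhancers, and for control IgG. No strain is given in the labels. There was 1 peak list for each of the 4 targets at each age, so a list pools its libraries and carries no replicate values, and every count below is a description without a replicate error or a test. The 4 IgG libraries were not analysed here, and whether the deposited lists were called against them is not given. The whole retina was used, so that fewer cells of a type and less signal per cell cannot be told apart. SOX9 is known as a factor of retinal progenitors and Müller glia, yet its P17 peaks were at 6 of 6 photoreceptor marker genes and 0 of 4 Müller glia markers, against 1 of 6 and 3 of 4 at P2. SOX8 peaks were at 2 of 6 photoreceptor and 2 of 4 Müller glia markers at P2, and at 4 of 6 and 0 of 4 at P17. Of all genes, 27.7% had a SOX9 peak at P2 and 15.7% at P17, and 15.1% and 13.0% a SOX8 peak. The specificity of the antibodies and the labels of the lists were not tested. A P17 SOX8 or SOX9 peak is therefore reported below as listed and is not taken as binding of that factor.

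Collagens assemble outside the cell into fibrils or networks. Laminins are trimers of an alpha, a beta and a gamma chain that polymerise into basement membranes together with type IV collagen. Integrins are pairs of an alpha and a beta subunit that bind these proteins and connect them to the cytoskeleton. In the eye the inner limiting membrane is a basement membrane between the retina and the vitreous, and the endfeet of Müller glia, the main glial cells of the retina, rest on it. The vitreous gel is built on fibrils of type II collagen with types V/XI and IX, and in cartilage SOX9 is a known activator of Col2a1, Col9 and Col11a2 genes.

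A SOX peak covered an annotated start of 9 members, and the stretches before 6 of these starts are shown as examples: at P2 for Itgb1, Col9a2 and Col23a1 and at P17 for Lama5, Col5a3 and Col7a1. Each is the 250 bases before the annotated start in the RefSeq annotation of GRCm38.p6, read 5′ to 3′ on the strand of the gene. They lie at chr8:128685404-128685653 (plus strand) for Itgb1, chr4:121039316-121039565 (plus) for Col9a2, chr11:51289670-51289919 (plus) for Col23a1, chr2:180225860-180226109 (minus) for Lama5, chr9:20815068-20815317 (minus) for Col5a3 and chr9:108953336-108953585 (plus) for Col7a1. Capitals mark matches on either strand to the SOX cores ACAAT (on the reverse strand ATTGT) and ACAAAG (on the reverse strand CTTTGT), to the CCAAT box (on the reverse strand ATTGG) and to the GC box GGGCGG (on the reverse strand CCGCCC).
Itgb1: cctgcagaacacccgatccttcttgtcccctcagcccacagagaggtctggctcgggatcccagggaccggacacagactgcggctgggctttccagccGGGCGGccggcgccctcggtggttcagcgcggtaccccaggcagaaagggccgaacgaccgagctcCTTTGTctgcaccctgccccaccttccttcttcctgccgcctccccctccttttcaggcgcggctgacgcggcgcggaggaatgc
Col9a2: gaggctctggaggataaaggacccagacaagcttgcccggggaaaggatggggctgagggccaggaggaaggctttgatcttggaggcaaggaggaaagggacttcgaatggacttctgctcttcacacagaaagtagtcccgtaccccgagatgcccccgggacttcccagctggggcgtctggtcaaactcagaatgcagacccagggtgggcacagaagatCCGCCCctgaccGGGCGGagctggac
Col23a1: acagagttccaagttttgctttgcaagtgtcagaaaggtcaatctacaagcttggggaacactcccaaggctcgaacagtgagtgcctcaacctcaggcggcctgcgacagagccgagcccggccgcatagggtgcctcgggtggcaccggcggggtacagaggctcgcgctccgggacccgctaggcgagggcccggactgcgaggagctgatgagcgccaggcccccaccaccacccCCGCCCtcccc
Lama5: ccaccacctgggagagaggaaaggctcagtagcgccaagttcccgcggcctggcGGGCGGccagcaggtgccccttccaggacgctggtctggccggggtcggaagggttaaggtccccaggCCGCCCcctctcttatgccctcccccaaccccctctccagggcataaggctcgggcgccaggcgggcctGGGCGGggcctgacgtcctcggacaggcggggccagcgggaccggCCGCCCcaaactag
Col5a3: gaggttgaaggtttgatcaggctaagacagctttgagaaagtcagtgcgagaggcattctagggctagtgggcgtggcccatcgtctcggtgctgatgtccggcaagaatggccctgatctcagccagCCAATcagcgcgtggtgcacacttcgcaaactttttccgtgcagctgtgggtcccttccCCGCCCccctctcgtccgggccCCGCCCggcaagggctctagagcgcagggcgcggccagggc
Col7a1: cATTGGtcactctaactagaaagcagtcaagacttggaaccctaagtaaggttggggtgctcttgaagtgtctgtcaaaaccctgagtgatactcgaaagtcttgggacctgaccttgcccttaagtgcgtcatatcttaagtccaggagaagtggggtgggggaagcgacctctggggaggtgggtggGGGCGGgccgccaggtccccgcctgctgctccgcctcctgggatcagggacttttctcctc

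Of the 9 stretches, 8 held a GC box, from 1 match in Itgb1, Col23a1 and Col7a1 to 4 in Lama5, and ACAAT was in none of them. Those not shown are Col11a2 with 2 GC boxes, Itgb5 with 3 and Itgb8 with 0. The other core, ACAAAG, was matched once, as CTTTGT, in Itgb1, and the CCAAT box once each in Col5a3, Col7a1 and Itgb8. Over 63 annotated starts of members, ACAAT was found in 7 (11.1%, against 25.1% of all 21262 starts), ACAAAG in 6 (9.52% against 14.9%), the CCAAT box in 17 (27% against 35.4%) and the GC box in 31 (49.2% against 42.6%). A paired core, ACAAT followed after 3 or 4 bases by its reverse ATTGT, was in 0 of the 63 and in 10 of all starts. A CCAAT box can overlap a SOX core of the other strand, and each was then counted. The 9 member starts inside a SOX peak had a median GC content of 62.8%. The 12 inside an H3K4me3 peak but no SOX peak had 62.2%, and the 42 in neither a SOX nor an H3K4me3 peak had 57.6%. For all genes the same medians were 64.0%, 59.2% and 48.8%. A match describes the letters of the window and is not a binding site, and a missing match says only that the letters are not in it.

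SOX peaks were found at a minority of the members. At P2, 6 of 80 members had a SOX8 peak (7.5%, against 15.1% of all protein-coding genes) and 15 had a SOX9 peak (18.8% against 27.7%). At P17, 9 had a SOX8 peak (11.2% against 13.0%) and 12 a SOX9 peak (15% against 15.7%), which is close to the share of all genes. In all, 23 members (28.8%, against 33.8% of all genes) had a SOX peak at some age. Both factors had a peak at 6 members at P2 (7.5% against 14.5%) and at 7 members at P17 (8.75% against 9.29%). Every member with a P2 SOX8 peak also had a P2 SOX9 peak, whereas at P17 Itga3 and Lamb3 had SOX8 without SOX9.

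The shares for H3K4me3 differed more from those of all genes. H3K4me3 peaks were present at 25 members at P2 (31.2% against 49.3%) and at 16 at P17 (20% against 50.9%). H3K27ac peaks were present at all 80 members at P2 (against 81.8% of all genes) and at 42 at P17 (52.5% against 57.0%). The members are long genes, with a median of 77.4 kb against 17.2 kb for all genes, so their windows are larger; the part of gene length in these counts was not tested. The P2 H3K27ac list held 287845 peaks and the P17 list 29909, and the part of this difference in the counts of that mark was not tested beyond the equal-number comparison given for H3K27ac.

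**Figure D1:**
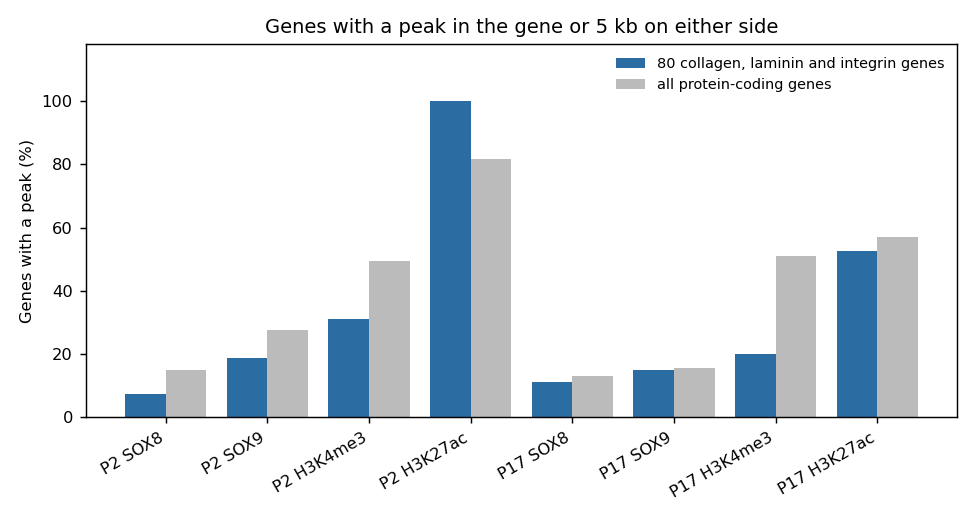
Share of genes with at least 1 peak in the gene or within 5 kb (vertical axis, %) for each of the 8 lists, with blue bars for the 80 collagen, laminin and integrin genes and grey bars for all protein-coding genes. The blue bar is lower than the grey one in 7 lists and takes in every member for P2 H3K27ac; the H3K4me3 bars stand at 31.2% and 20% beside 49.3% and 50.9%.

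Several peaks within the windows lay on the start of a neighbouring gene. Of 45 distinct SOX peaks at members, 10 covered an annotated start of the member and 13 covered an annotated start of another gene. Peaks that covered another gene's start and none of the member's own were therefore set aside in a second count, chosen after the values were seen. By it, SOX8 had a peak at 4 members at P2 (5.0%, against 12.9% of all genes) and 6 at P17 (7.5% against 11.3%), and SOX9 at 11 at P2 (13.8% against 24.3%) and 9 at P17 (11.2% against 13.4%). For H3K4me3 the count was 20 at P2 (25% against 45.2%) and 8 at P17 (10% against 46.7%).

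At the members' own sites H3K4me3 was often listed at P2 and not at P17, and the reverse was found at none. By the second count, 12 members had such a peak at P2 only (15% against 3.54% of all genes). Another 8 had one at both ages (10% against 41.7%), and 0 at P17 only (0.0% against 5.05%). The 12 were Col2a1, Col5a1, Col9a1, Col11a1, Col18a1, Col23a1, Col4a5, Col4a6, Lama1, Lamb2, Itga5 and Itgb8. The 8 with a peak at both ages were Col4a1, Col4a2, Lamc1, Itga3, Itga6, Itgav, Itgb1 and Itgb5. When peaks on neighbouring starts were included, 11 members had H3K4me3 at P2 only (13.8% against 3.4%) and 2 at P17 only (2.5% against 5.0%). Those 2 were Col5a3, where the peak of 4633 bp lay on the start of Rdh8, a retinol dehydrogenase of photoreceptors, and Itga1, where the peak of 2938 bp lay on the start of Pelo, a ribosome rescue factor.

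Marker genes of retinal cell types also differed between the ages in these lists. H3K4me3 peaks were at 3 of 6 photoreceptor markers at P2 and 6 of 6 at P17, at 4 of 4 progenitor markers and then 1 of 4, and at 3 of 4 Müller glia markers and then 1 of 4. Peaks were at 1 of 3 astrocyte, 1 of 5 microglia, 1 of 5 endothelial, 0 of 4 pericyte and fibroblast and 1 of 4 retinal pigment epithelium markers at each age. The shares of all genes were 49.3% at P2 and 50.9% at P17. Peaks on neighbouring starts were not set aside in these marker counts. The part of the make-up of the tissue in the members' counts was not tested.

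**Figure D2:**
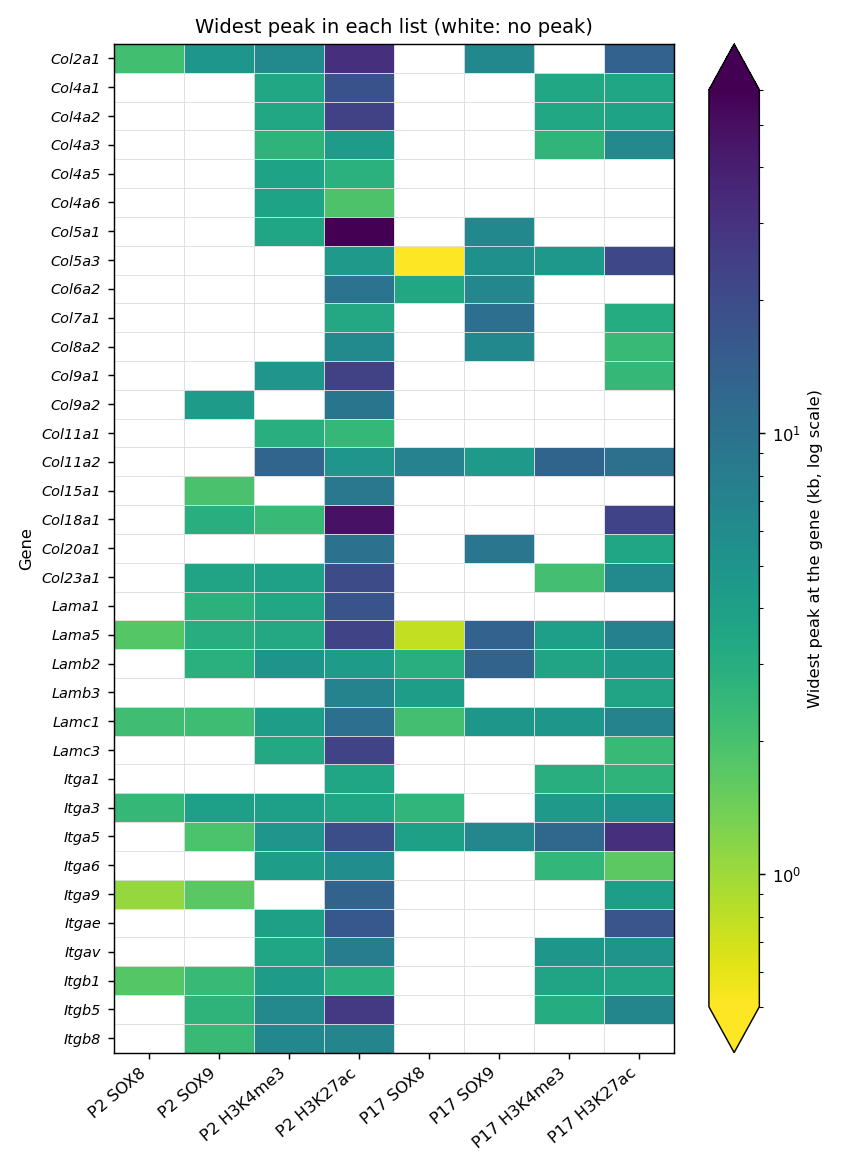
Width of the widest peak (colour, kb on a log scale) at the 35 members with a SOX or H3K4me3 peak, with genes down the side, the 8 lists along the bottom and white for no peak. H3K4me3 at Col2a1, Col5a1, Col9a1, Col11a1 and Col18a1 is filled at P2 and white at P17, whereas Col4a1, Col4a2 and Lamc1 are filled at both ages.

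Among the 11 genes of fibrillar collagens, 4 had an H3K4me3 peak at P2 and 2 at P17, beside 49.3% and 50.9% of all genes. The P17 peaks, at Col5a3 and Col11a2, lay only on neighbouring starts, as did the P2 peak at Col11a2. Col2a1, which encodes the main fibrillar collagen of the vitreous, had an H3K4me3 peak of 6174 bp at P2, at its end with the higher coordinate (chr15:98000283-98006456), and none at P17. A P2 SOX9 peak of 4852 bp lay inside that H3K4me3 peak, and another of 3872 bp lay inside the gene (chr15:97991026-97994897) over a SOX8 peak of 2124 bp. The P17 SOX9 list held 1 peak of 6444 bp at Col2a1 (chr15:97985411-97991854), which overlapped the inner P2 SOX9 peak but not the P2 SOX8 peak, and no P17 SOX8 peak. A SOX9 peak was therefore listed inside Col2a1 at both ages and at the gene end at P2 only.

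Col11a1 and Col5a1, chains of the minor fibrillar collagens that set fibril diameter, had H3K4me3 peaks at the 5′ end at P2 of 2977 bp and 3559 bp, and none at P17. Col11a1 had no SOX peak. Col5a1 had a P17 SOX9 peak of 6457 bp inside the gene (chr2:28008371-28014827), with neither H3K4me3 nor H3K27ac of that age under it. Col5a3, another chain of type V collagen, had a P17 SOX9 peak of 5396 bp over its own start, and the P17 SOX8 peak there was 49 bp wide. Col11a2 had a P17 SOX8 peak of 7120 bp over its own start, with H3K27ac and without H3K4me3, while the P17 SOX9 peak of 4540 bp lay in the flank on the starts of Rxrb, a retinoid receptor, and Slc39a7, a zinc transporter. The H3K4me3 peaks recorded for Col11a2, 12687 bp at P2 and 12795 bp at P17, also lay on those neighbouring starts.

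The type IX genes, whose product coats type II fibrils, differed among themselves. Col9a2 had a P2 SOX9 peak of 4351 bp over its start, in H3K27ac but with no H3K4me3 peak, and no SOX peak at P17. Col9a1 had no SOX peak; its P2 H3K4me3 peak of 4899 bp covered an annotated start inside the gene and was absent at P17. Col9a3 had neither a SOX nor an H3K4me3 peak. Col20a1, a fibril-associated collagen, had a P17 SOX9 peak of 9160 bp inside the gene, with neither mark of that age.

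Of the type IV collagen genes, 4 had H3K4me3 at their own starts, in pairs that share a peak. Col4a1 and Col4a2, the chains of the most widespread type IV network, lie head to head and shared 1 H3K4me3 peak, 3437 bp wide at P2 and 3420 bp at P17, and neither had a SOX peak. Col4a5 and Col4a6, also head to head, shared a peak of 3768 bp that was listed at P2 only. Col4a3, a chain of the type IV network of specialised basement membranes, had only peaks on the start of Mff, a mitochondrial fission factor, and Col4a4 had no H3K4me3 or SOX peak. Col18a1, the basement membrane collagen from which endostatin is cut, had a P2 H3K4me3 peak of 2391 bp at its 5′ end and a P2 SOX9 peak of 2942 bp inside the gene, and neither at P17. Col15a1, the other collagen of the same class, had a P2 SOX9 peak of 1971 bp inside the gene.

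The remaining collagens with SOX peaks were Col6a2, Col7a1 and Col8a2 at P17 and Col23a1 at P2. Col7a1, which forms the anchoring fibrils below epithelia, had a pair of P17 SOX9 peaks of 7975 bp over its start and 10533 bp inside the gene, both with neither mark of that age. Col6a2, a chain of beaded microfibrils, had inside the gene a P17 SOX8 peak of 3479 bp and a P17 SOX9 peak of 6376 bp, again with neither mark. Col8a2, a chain of the network collagen of Descemet's membrane, had a P17 SOX9 peak of 6423 bp at its 3′ end in H3K27ac. Col23a1, a transmembrane collagen, had P2 SOX9 peaks of 3590 bp over its start and 3641 bp at its 3′ end, the latter on the start of Phykpl. Its own H3K4me3 peak of 3908 bp was listed at P2 only, and the peak on Phykpl at both ages.

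Across the family, SOX9 peaks were at 5 of 44 collagen genes at P2 and 8 at P17, beside 27.7% and 15.7% of all genes. Within the windows, the only collagen gene with SOX9 at both ages was Col2a1. The P17 SOX9 peak at Col11a2 overlapped a P2 SOX9 peak that lay outside the window. At P2 the 5 were Col2a1, Col9a2, Col15a1, Col18a1 and Col23a1. At P17 they were Col2a1, Col5a1, Col5a3, Col6a2, Col7a1, Col8a2, Col11a2 and Col20a1. SOX8 peaks were at 1 collagen gene at P2 (Col2a1) and 3 at P17 (Col5a3, Col6a2 and Col11a2), beside 15.1% and 13.0% of all genes.

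Among the 11 laminin genes, 2 had SOX8 and 4 SOX9 peaks at P2, and 4 and 3 at P17. The shares of all genes were 15.1% for SOX8 and 27.7% for SOX9 at P2, and 13.0% and 15.7% at P17. Lamc1, the gamma chain of most laminins, was the member with the same site in all 4 SOX lists. Its peaks at the end with the higher coordinate were 2151 bp (P2 SOX8, chr1:153331891-153334041), 2219 bp (P2 SOX9), 2076 bp (P17 SOX8) and 4782 bp (P17 SOX9). All of them overlapped each other and both marks at both ages, with H3K4me3 of 4174 bp at P2 and 4720 bp at P17. Lama5, an alpha chain of mature basement membranes, was also in all 4 lists, but at different places. Its P2 peaks (1780 bp for SOX8 and 3050 bp for SOX9) were in the flank on the start of Adrm1, a proteasome subunit. Its P17 SOX9 peak of 13361 bp ran from the 5′ end into the gene (chr2:180212979-180226339) and held a P17 SOX8 peak of 782 bp, with no H3K4me3.

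Lama1, the alpha chain of the laminin of the inner limiting membrane, had a P2 SOX9 peak of 2752 bp and a P2 H3K4me3 peak of 3376 bp at its end with the lower coordinate, and neither at P17. Lamb2, a beta chain of retinal and synaptic laminins, had SOX peaks only at its 3′ end, on the start of the deubiquitinase gene Usp19. They measured 2890 bp in the P2 SOX9 list, 2943 bp in the P17 SOX8 list and 13083 bp in the P17 SOX9 list, and the last also reached across most of the gene. Its own 5′ H3K4me3 peak of 3966 bp was listed at P2 only. Lamb3, the beta chain of an epithelial laminin, had a P17 SOX8 peak of 4193 bp inside the gene with neither mark of that age. Lama2, Lama4 and Lamb1 had no SOX or H3K4me3 peak at either age, and Lamc3 had only a P2 H3K4me3 peak of 3343 bp on the start of Aif1l.

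**Figure D3:**
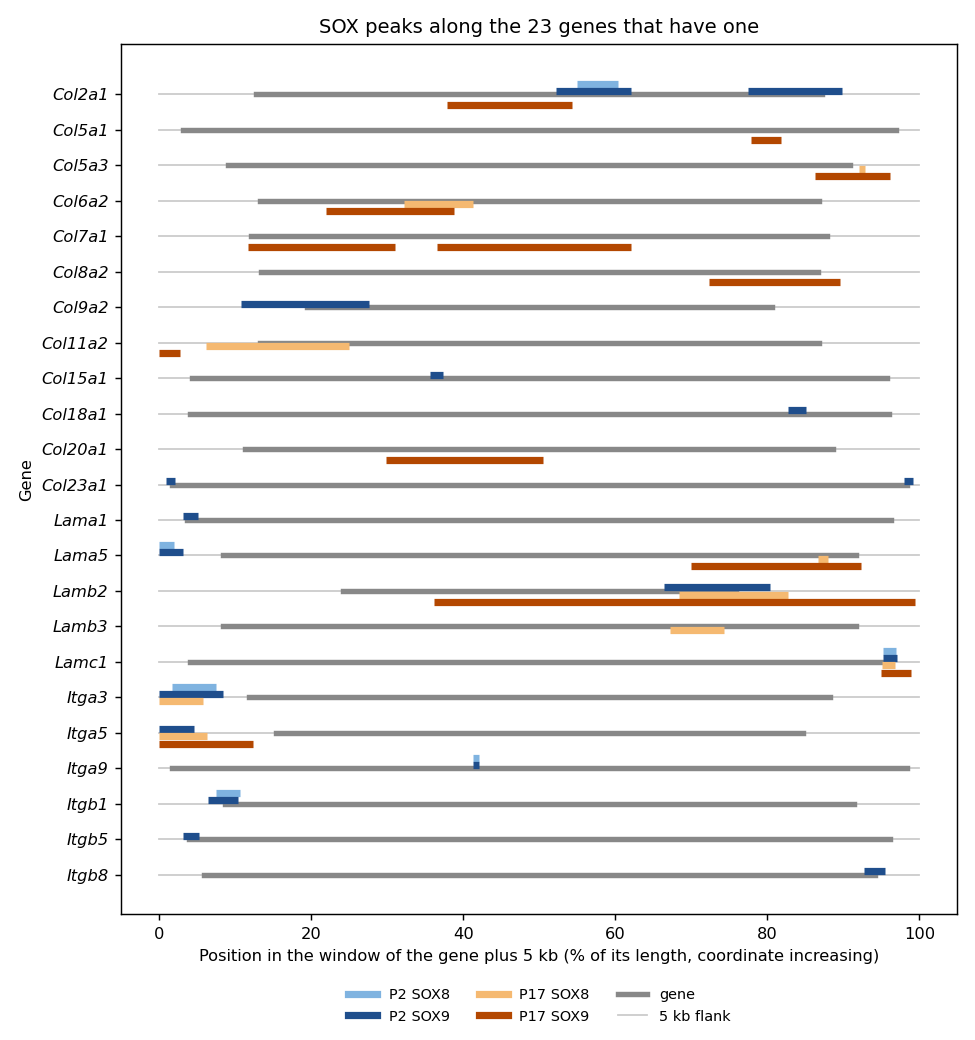
Positions of SOX peaks along the 23 members that have one, as % of the window from its lower to its higher coordinate, with the gene as a thick grey line, the 5 kb flanks thin, P2 peaks in blue and P17 peaks in orange. Very narrow peaks are drawn wider than they are. Lamc1 has all 4 lists at 1 end, whereas the P2 peaks of Lama5 and all peaks of Itga3 lie in a flank.

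Of the 25 integrin genes, 6 had a P2 SOX9 peak (27.7% of all genes did) and 1 a P17 SOX9 peak (15.7% of all genes). SOX8 peaks were at 3 at P2 and 2 at P17, beside 15.1% and 13.0% of all genes. Itgb1, the beta subunit shared by most laminin and collagen receptors, had P2 peaks over its start of 1782 bp for SOX8 and 2321 bp for SOX9. No SOX peak was listed there at P17, while its H3K4me3 peak was 4253 bp at P2 and 3641 bp at P17. Itgb5, a partner of the alpha v subunit, had a P2 SOX9 peak of 2688 bp over its start and H3K4me3 at both ages (6296 bp and 3084 bp). Itgb8, the alpha v partner that activates latent TGF-beta, had a P2 SOX9 peak of 2385 bp over its start and H3K4me3 of 6436 bp at P2, and neither at P17. Itga9, a receptor subunit for tenascin, had P2 peaks inside the gene of 1067 bp for SOX8 and 1692 bp for SOX9, in H3K27ac only.

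The other integrin SOX peaks lay in flanks or at the far end of the gene. Those of Itga3, a laminin-binding subunit, were on the start of Pdk2, a kinase of the pyruvate dehydrogenase complex, at 2452 bp (P2 SOX8), 3993 bp (P2 SOX9) and 2592 bp (P17 SOX8). Those of Itga5, the alpha subunit of the fibronectin receptor, were on the start of Zfp385a, at 1951 bp (P2 SOX9), 3944 bp (P17 SOX8) and 6548 bp (P17 SOX9). With such peaks set aside, 0 integrin genes had a SOX peak at P17, against Itga9, Itgb1, Itgb5 and Itgb8 at P2. By that second count the shares of all genes were 12.9% for SOX8 and 24.3% for SOX9 at P2, and 11.3% and 13.4% at P17. At Itga5 the member's own 5′ H3K4me3 peak of 3618 bp was listed at P2 only, and at Itga3 it was listed at both ages (4025 bp and 4486 bp).

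Itga6, an alpha subunit of laminin receptors, and Itgav, the alpha v subunit, had H3K4me3 at both ages and no SOX peak. For Itga6 the peak was 4176 bp at P2 and 2524 bp at P17, and for the annotated start of Itgav 3541 bp and 2511 bp. Among leukocyte integrins, Itgal, Itgam, Itgax and their beta partner Itgb2 had neither a SOX nor an H3K4me3 peak at either age. Itgae had a P2 H3K4me3 peak of 3981 bp on the start of Haspin, a histone kinase gene that lies within it.

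Compared gene by gene between the ages, SOX8 peaks were at P2 only in 3 members (3.75% against 7.0% of all genes), namely Col2a1, Itga9 and Itgb1, and at P17 only in 6 (7.5% against 4.94%). SOX9 peaks were at P2 only in 10 members (12.5% against 16.3%) and at P17 only in 7 (8.75% against 4.34%). This order turned with equal numbers of the widest peaks at both ages, which gave 6 members at P2 only and 9 at P17 only. Under that setting 14.5% of all genes had a P2 SOX9 peak and 15.7% a P17 SOX9 peak. The shares of all genes at P2 only and at P17 only were not counted under that setting. Of the members with SOX9 at P17 only in the full lists, Col11a2 had a P2 SOX9 peak just outside its window. SOX8 was listed at both ages at Itga3, Lama5 and Lamc1, and SOX9 at Col2a1, Itga5, Lama5, Lamb2 and Lamc1. Of these, Lamc1 and Col2a1 were the ones with overlapping peaks at both ages that were not on a neighbour's start.

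The SOX peaks of P17 lay less on promoter chromatin than those of P2, both at members and in the whole lists. Of 17 distinct P2 SOX9 peaks at members, 12 overlapped P2 H3K4me3 (79.8% of that list did) and all 17 overlapped P2 H3K27ac (99.4% of the list). Of 13 distinct P17 SOX9 peaks, 5 overlapped P17 H3K4me3 (66.5% of the list), 8 overlapped H3K27ac (84.3%) and 5 overlapped neither (13.9%). For SOX8, 4 of 6 P2 peaks and 4 of 9 P17 peaks overlapped H3K4me3 (90.1% and 69.7% of the lists). Neither mark was overlapped by 0 of the P2 and 3 of the P17 SOX8 peaks (0.0377% and 13.9% of the lists). The 7 members with a P17 SOX peak and no P17 H3K4me3 peak anywhere in the window (8.75%, against 2.48% of all genes) were Col2a1, Col5a1, Col6a2, Col7a1, Col8a2, Col20a1 and Lamb3. The difference between the ages and between members and lists was described only.

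Counted over members that carried H3K4me3 of the same age, the shares were nearer to those of all genes at P2 than at P17. At P2, 5 of 25 such members had a SOX8 peak (20% against 29.8%) and 12 a SOX9 peak (48.0% against 53.3%). At P17, 7 of 16 had a SOX8 peak (43.8% against 23.1%) and 6 a SOX9 peak (37.5% against 27.4%). In 8 of these 16 the P17 H3K4me3 peak lay only on the start of another gene. Of the other 8, Lamc1 was the only member with a P17 SOX peak that was not on a neighbour's start alone.

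The median width of SOX9 peaks at members, and of the whole list, was larger at P17. It was 2890 bp at P2 and 6457 bp at P17, beside 2668.5 bp and 5336 bp for the lists. For SOX8 the medians were 1953 bp and 2943 bp, beside 2217 bp and 2911.5 bp. The widest were at Col2a1 for P2 SOX9 (4852 bp), Itga3 for P2 SOX8 (2452 bp), Col11a2 for P17 SOX8 (7120 bp) and Lama5 for P17 SOX9 (13361 bp).

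**Figure D4:**
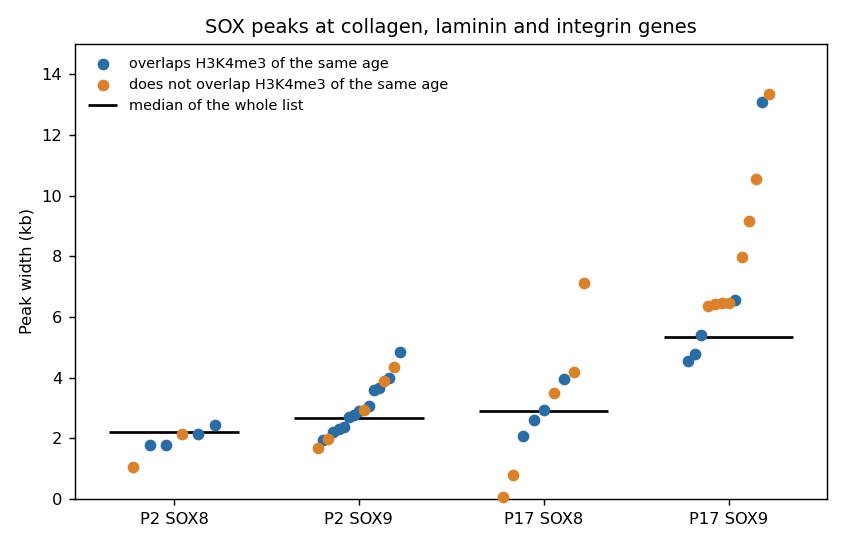
Widths (kb) of the distinct SOX peaks at members in each of the 4 SOX lists, with blue points for peaks that overlap H3K4me3 of the same age, orange points for those that do not, and a black line for the median of the whole list. The P17 SOX9 points include the widest peak, 13361 bp at Lama5, which is orange.

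H3K27ac covered more of the members' windows than of other genes at P2 and less at P17. The median share of the window under peaks was 30.2% at P2 (all genes 20.9%) and 0.621% at P17 (all genes 4.85%). It was lower at P17 in 77 of 80 members, and higher in Col5a3, Col6a5 and Itgal, a count not made over all genes. At P2 and P17 in turn it was 90.7% and 28.8% in Col2a1, 90.9% and 9.3% in Col18a1, 65.6% and 2.92% in Col9a1, and 81.2% and 0.0% in Lama1. Col5a1, which had the widest P2 peak among the members (61737 bp), had 83.5% and 0.0%. Col5a3 had 28.5% and 49.4%, in a window that holds the start of Rdh8.

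Apart from Col5a3, the members with over 20% of the window under P17 peaks were Col2a1, Lamc1, Itga5, Itga3 and Lamb2. Lamc1 had 58.8% at P2 and 34.8% at P17, Itga5 67.8% and 25.8%, Itga3 54.0% and 24.7%, and Lamb2 42.9% and 21.4%. These are totals over the window and need not be the same sites. The windows of Itga5, Itga3 and Lamb2 hold the neighbouring starts named above. H3K27ac was listed at P2 only at 38 members (47.5% against 25.1% of all genes), among them Lama2, Lama4, Lamb1, Col4a4, Itgam, Itgax, Itgb2 and Itgb8, and at P17 only at 0 (0.0% against 0.315%). When the widest P2 peaks were taken in the number of the P17 list, 53 members had a P2 H3K27ac peak, against 42 at P17, while for all genes the shares were 40.5% and 57.0%. Under that setting the mark was at P2 only in 17 members and at P17 only in 6. The shares of all genes at P2 only and at P17 only were not counted there, so these member counts have no all-gene comparison.

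**Figure D5:**
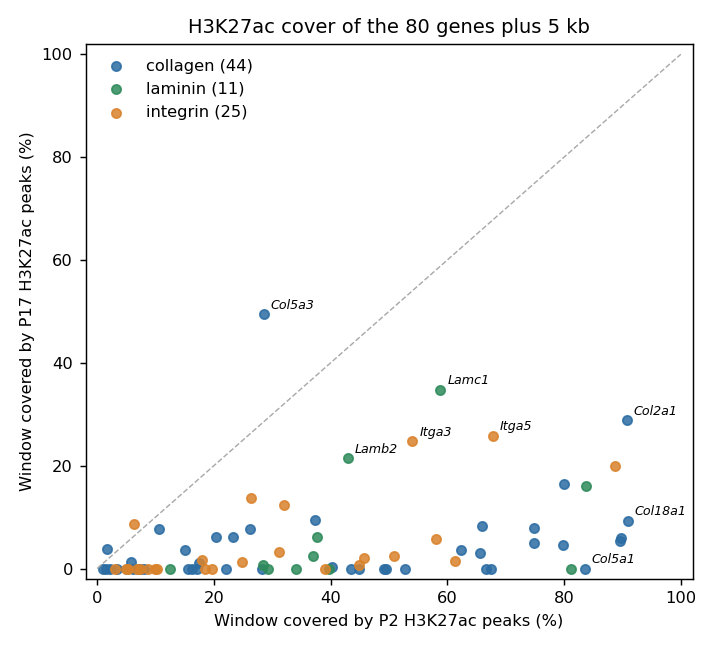
Share of each member's window covered by H3K27ac peaks at P2 (horizontal axis, %) and P17 (vertical axis, %), with collagens in blue, laminins in green, integrins in orange and the line of equal values dashed. All but 3 of 80 points lie below the line, and the whole list covers 525.4 Mb at P2 and 173.4 Mb at P17. Col5a3 stands above the line at 49.4% and Lamc1 below it at 34.8%.

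A list of 42 other genes of matrix assembly and adhesion was counted in the same way, and 41 were matched. SOX8 peaks were at 7 of them at P2 and 6 at P17, SOX9 peaks at 13 and 11, and H3K4me3 peaks at 31 and 25. The shares of all genes at P2 and P17 were 15.1% and 13.0% for SOX8, 27.7% and 15.7% for SOX9, and 49.3% and 50.9% for H3K4me3. In all 4 SOX lists were Agrn, a heparan sulfate proteoglycan of basement membranes, P4hb, a subunit of collagen prolyl hydroxylase, and Src, a kinase of focal adhesions. For Agrn the widest peaks were 1625 bp (P2 SOX8), 1829 bp (P2 SOX9), 3292 bp (P17 SOX8) and 11137 bp (P17 SOX9). Dag1, the laminin receptor dystroglycan, had P2 peaks of 2045 bp for SOX8 and 2112 bp for SOX9 and none at P17. Hspg2, which encodes perlecan, had SOX9 peaks of 2583 bp at P2 and 7503 bp at P17.

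The edge of the 5 kb window decided some members. Just inside it were the P2 peaks at Lama5 (3879 bp and 3133 bp from the gene), the P2 SOX9 peak at Itga5 (3519 bp) and the P17 SOX9 peak at Col11a2 (3969 bp). Just outside were the P2 peaks near Col11a2 (5886 bp for SOX8 and 5663 bp for SOX9), a P2 SOX9 peak near Col7a1 (6308 bp, on the start of Pfkfb4) and a P17 SOX9 peak near Col18a1 (7450 bp). The P17 SOX9 peak at Col11a2 overlapped P2 peaks of both factors. Col11a2 was thus counted as SOX9 at P17 only because of the window edge.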

How the data were processed

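CUT&RUN peak lists from mouse retina at P2 and P17 were analysed for SOX8, SOX9, H3K4me3 and H3K27ac. Per the submitters' processing notes, which give no role or version, Bowtie2 and SEACR were used with build GRCm38; how replicates and IgG entered the peak calls is not given in the sources used here. The deposited lists hold peak coordinates and a score that is 0 in every peak, so the authors' lists carry no height, read depth is unknown, and no interval or replicate error can be given. Libraries were grouped by age and antibody as in the labels, and 0 columns of values were left unused.

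Gene spans came from the RefSeq table of GRCm38.p6. A peak was counted where it overlapped the gene or its 5 kb flanks by at least 1 bp, and distinct peaks were counted once. Gene end means within 1 kb of either end of the gene, because annotated starts were matched for 57 of 80 members (17491 of 21883 genes). The count of peaks on neighbouring starts uses that same set of starts, so it can err in both directions. It keeps a peak that lies on an unmatched start of a neighbour. It drops a peak that covers a neighbour's start together with an unmatched start of the gene itself. The size of either error was not tested. Counts were set beside those of all protein-coding genes, with no test. Promoter sequences came from RefSeq.

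Genes named with values were those with a P17 SOX peak, with both factors at P2 or with the 5 widest SOX peaks of a list, and chosen members of retinal basement membranes, vitreous and leukocytes; others were named after their values were seen. The members and lists were chosen with earlier results of these data known. Alternatives were no flank, a 20 kb flank, gene ends only, the wider 50% of each list, equal numbers of the widest peaks at both ages, peaks of at least 500 bp (chosen after seeing the data) and members that share a peak counted as 1. Python 3.11.15, pandas 2.3.3 and NumPy 2.4.6 were used, and the overlap code was tested on simulated data.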

Additional observations from a re-analysis of the deposited data

How the results depend on the processing

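Of 116 alternative counts, 78 stayed within 1.5 times the reported one. Peaks of at least 500 bp, and counting members that share a peak as 1, moved 0 counts beyond that. With no flank, H3K4me3 at P17 only went to 1 and both factors at P17 to 4. With a 20 kb flank, members with a peak were 11 (P2 SOX8), 24 (P2 SOX9), 38 (P2 H3K4me3) and 33 (P17 H3K4me3). The shares of all genes with that flank were 20.5%, 35.7%, 56.7% and 57.9% in the same order. SOX8 was then at P2 only in 5 members, H3K4me3 at P17 only in 4, and both factors in 10 at P2 and 11 at P17. For gene ends only and for the wider 50% of each list, shares of all genes were not counted. With no flank, a 20 kb flank or equal numbers, they were counted for each list alone. Shares of all genes at 1 age only or with both factors were counted under none of the alternatives. Within 1 kb of a gene end, members with a peak were 2 (P2 SOX8), 9 (P2 SOX9), 4 (P17 SOX8), 7 (P17 SOX9), 9 (P17 H3K4me3) and 19 (P17 H3K27ac). There SOX8 was at P2 only in 1 and at P17 only in 3, H3K4me3 at P17 only in 0, H3K27ac at P17 only in 1, and both factors in 2 at P2 and 3 at P17. In the wider 50% of each list the counts were 1 (P2 SOX8), 9 (P2 SOX9), 16 (P2 H3K4me3), 5 (P17 SOX8), 7 (P17 H3K4me3) and 26 (P17 H3K27ac), with SOX8 at P2 only 1, SOX9 at P2 only 6, and both factors 1 at P2 and 3 at P17. With equal numbers of the widest peaks at both ages, P2 SOX9 was at 9 and P2 H3K27ac at 53, SOX9 at P2 only 6 (and at P17 only 9), H3K27ac at P2 only 17 and at P17 only 6, and both factors at P2 3. Under that setting P2 SOX9 peaks were at fewer members than the 12 of P17, the opposite order to the full lists. The shares of all genes were 14.5% at P2 and 15.7% at P17, so their order turned as well. The cause was not tested. No paired analysis was possible because the lists name no replicates, and no replicate could be left out for the same reason. Read depth is unknown, so a gene with no listed peak is one where none was called.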
